A study of Mus musculus with 2 samples.

Results

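The genes described are 10 genes of muscle stem cells and of the myogenic factors: the transcription factors Pax7, Myf5, Myod1, Myog and Myf6, the receptors Calcr and Fgfr4, the adhesion proteins Cdh15 and Itga7, and the surface protein Chodl. They were chosen by gene symbol in the annotation of the array's probes, and all 10 were found, each with 1 probe, among 19321 genes named on the array. Gastrocnemius, a calf muscle, was taken from 2 female mice aged 10 weeks, and each animal's RNA was measured on 1 array. The depleted muscle was that of a mouse of the genotype Pdgfra-CreER:R26-DTA. In this genotype cells with an active Pdgfra promoter make a Cre recombinase that works once tamoxifen is given, and Cre allows the toxin gene DTA, inserted at Rosa26, to be expressed, which kills the cell. The control muscle came from a wild type:R26-DTA littermate, which carries the toxin cassette without CreER. Tamoxifen was given to both animals on 5 days in a row, starting when they were 9 weeks old, and tissue was collected 2 days after dosing ended. The question was which genes are expressed differently in muscle from which PDGFRα-positive mesenchymal progenitors, interstitial cells that make matrix, were depleted. With 1 array per group there are no replicates, the spread between animals is unknown and no test is possible, and neither array nor the presence of CreER can be told apart from depletion.

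Muscle stem cells, also called satellite cells, lie between the myofibre and its basement membrane. In resting muscle they express Pax7 and stay quiescent. On activation they make the basic helix-loop-helix factors Myf5 and MyoD, encoded by Myod1, and as they differentiate they make myogenin, encoded by Myog. These factors bind a DNA element called the E-box together with partner proteins and switch on muscle genes. Myf6, the remaining factor of the family, is expressed in mature myofibres as well, so it is not a marker of stem cells alone.

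Each gene is described by a pair of measures: the authors' deposited intensity, on a linear scale with a median of 25 on both arrays, and the log2 ratio of depleted over control computed from the scanner values, called the log2 ratio. Of 23473 probes, 92.6% were above background in control and 92.8% in depleted muscle, where background means the mean of the blank spots plus 2 SD. All 10 genes were above background on both arrays, and 18498 genes in all were compared. The depleted array was brighter before normalization, with a median probe of 59.8 scanner units against 53.3. Spot error was read from 2 positive control sequences printed 24 times on each array. The log2 ratio of their spots had an SD of 0.13 and 0.16. This SD covers differences between spots on these arrays and not those between animals. Among dim genes the blank spots set the error, and the difference of 2 blank spots had an SD of 1.04 deposited units. The targeted gene Pdgfra had a deposited intensity of 273.1 in control muscle and 116.6 in the depleted one, and a log2 ratio of -0.94.

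**Figure D1:**
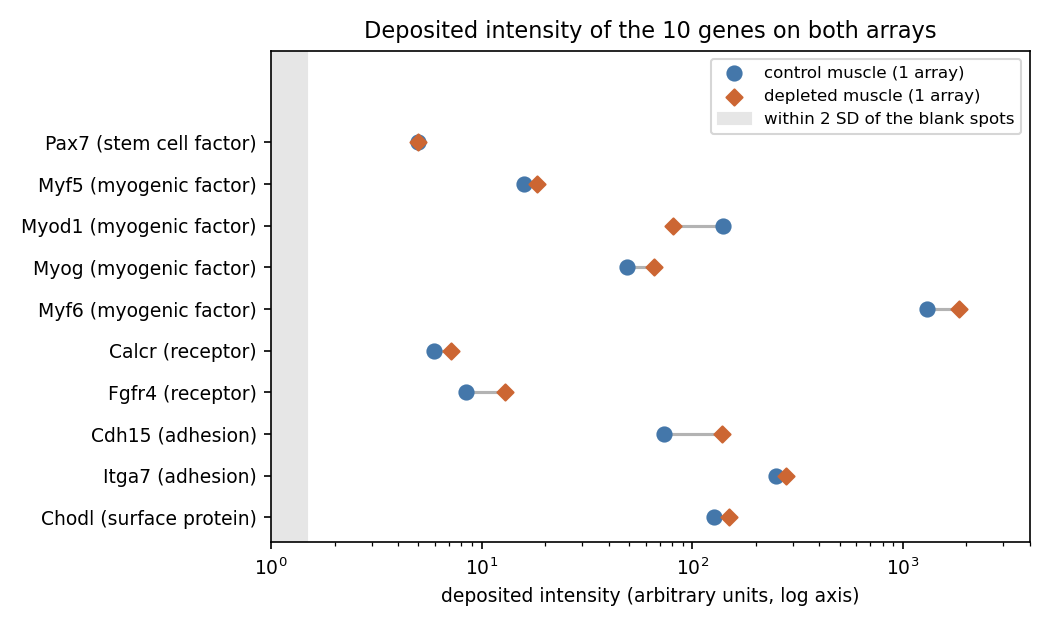
Deposited intensity (arbitrary units, log axis) of the 10 genes in control (circles) and depleted (diamonds) muscle, 1 array each, with the range within 2 SD of the blank spots shaded. On this scale Myod1 was lower in depleted muscle, Cdh15 and Myf6 were higher, and both points of Pax7 lie at 5.0; levels of different genes are not comparable because each has its own probe.

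In the main setting the differences of the 10 genes were below 1.5-fold. The 2 largest ran in opposite directions: Cdh15 was higher and Myod1 lower in depleted muscle. With scaling to the median and with the local background subtracted, Myf6 had the highest ratio instead. In the main setting 0 of the 10 genes were at least 2-fold higher or lower, where 0.497% of all genes compared were that much higher and 0.427% that much lower. At 1.5-fold the count was also 0, against 1.97% of all genes higher and 1.52% lower. Counts of 0 among 10 genes are close to these shares. Ranked by brightness, Pax7 and Calcr fell in the dimmest 4625 genes, of which 0% differed by 1.5-fold. Myf5 and Fgfr4 fell in the next 4624, of which 0.108% did, so these genes could hardly have been counted. A higher ratio of any size was found for 8 of the 10 genes and for 47.4% of all genes, and the median log2 ratio was 0.11 for the 10 genes and 0.00 for all genes. In the authors' deposited values 3 of the 10 genes differed by at least 1.5-fold, where 18.0% of all genes did: Cdh15 and Fgfr4 were higher and Myod1 was lower. Whole muscle was measured, so fewer cells of a type and less RNA per cell cannot be told apart.

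The directions depended on how the arrays were scaled. Under the main setting and the alternatives fixed for this comparison, 12 settings in all, Cdh15, Myf6 and Myog were higher and Myod1 was lower in each. The filters on dim genes and the averaging of probes repeat the main value for these genes by construction, so those settings are not separate evidence. The local background column was itself high on bright spots. In control muscle it read 24585 for the brightest myofibre marker, a spot of 51523, while the blank spots averaged 36.3. In depleted muscle it stood at 116% of the spot of Pcna. Ratios after its subtraction are therefore a weak guide to direction. The 2 positive controls were themselves brighter on the depleted array after normalization, with mean log2 ratios of 0.60 and 0.47, and what they contain is not given in the sources used here. With the blank spots subtracted and both arrays scaled to these controls, a setting added after the values were seen, the median of all genes moved to -0.54, and 8 of the 10 genes had a ratio below 0. Relative to that median, 8 of 10 were higher, with Cdh15 at 0.94, Fgfr4 at 0.64, Myf6 at 0.51 and Myog at 0.44, while Myod1 was at -0.78.

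**Figure D2:**
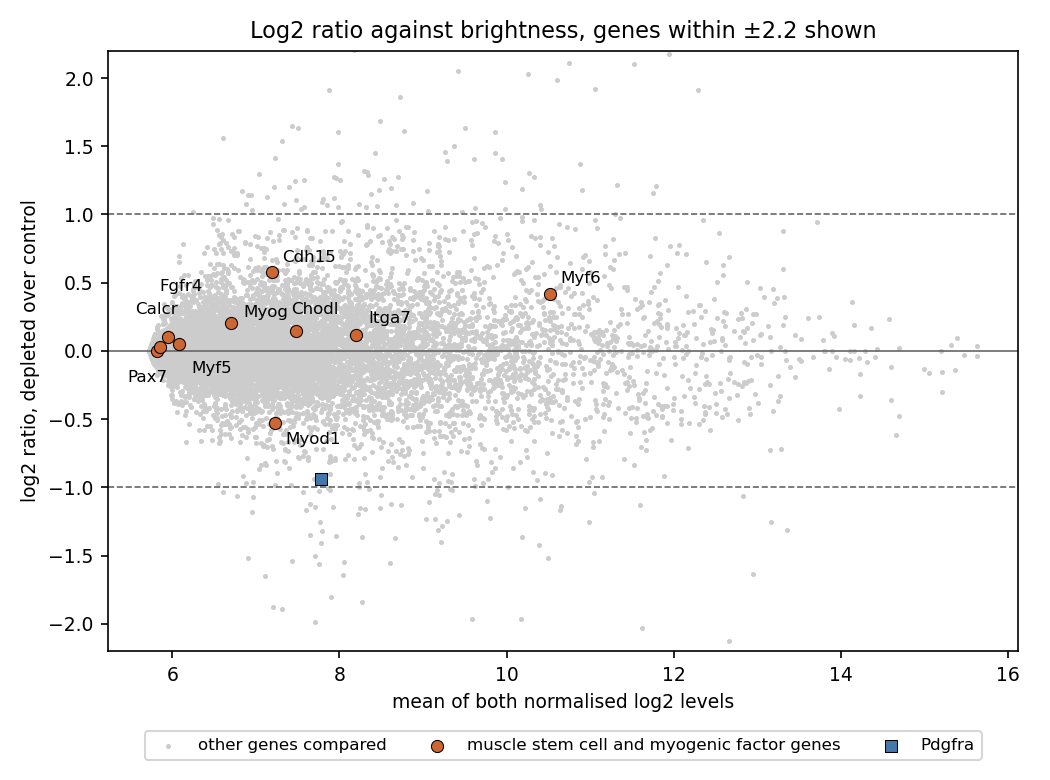
Log2 ratio of depleted over control against the mean of both normalised log2 levels for the genes compared, each a point, with the 10 genes and Pdgfra marked; dashed lines stand at a 2-fold difference and genes beyond 2.2 on the log2 scale are not drawn. The ratios of Pax7, Calcr, Myf5 and Fgfr4 sit at the dim left end, where the offset of 50 draws all ratios toward 0; Myod1 at -0.53 and Cdh15 at 0.58 lie near the edges of the cloud.

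Pax7, the transcription factor that marks quiescent and activated stem cells, had a deposited intensity of 5.0 in both muscles. Its scanner value was 6.77 SD of the blank spots above their mean in control and 6.79 SD in depleted muscle, so its probe was measurable but dim. The log2 ratio was 0.00. A difference smaller than about the blank spots' error of 1.04 units was not detectable with this probe.

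Myf5, the factor made earliest in the myogenic lineage and kept at a low level in many quiescent stem cells, had deposited intensities of 15.9 in control muscle and 18.2 in the depleted one. The difference of 2.3 units was 2.21 times the SD of the difference of blank spots. The log2 ratio was 0.05, above 73.7% of all genes, and 0.19 in deposited values. It was -0.01 once the local background column was subtracted and -0.32 with scaling to the positive controls.

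Myod1, which commits activated stem cells to differentiation and can turn other cell types into muscle cells, was the 1 gene of the 10 that was lower by more than the spot error. Its deposited intensity was 139.7 in control and 80.5 in depleted muscle, 1.74-fold lower. The log2 ratio of -0.53, or 1.44-fold lower, was 3.38 times the larger of the spot SDs, and 1.96% of all genes had a lower ratio. Among the 4625 genes of its brightness class the log2 ratios had an SD of 0.24, and 3.01% differed by 1.5-fold or more. Across the 12 settings the log2 ratio of Myod1 ranged from -0.82 with the blank spots subtracted to -0.35 with scaling to the median. With scaling to the positive controls it was -1.32, where the median of all genes stood at -0.54. The local background column stood at 26.6% of the spot's value in control and at 75.7% in depleted muscle. With that column subtracted, the log2 ratio of Myod1 was -0.81.

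Myog, which drives the fusion and terminal differentiation of myoblasts, had deposited intensities of 49.1 in control muscle and 66.0 in the depleted one. The log2 ratio was 0.20, which is 1.29 times the spot SD, and it lay above 89.6% of all genes. Among the 4625 genes of its brightness class the log2 ratios had an SD of 0.24. Settings other than the scaling to positive controls (-0.10) placed the ratio of Myog between 0.12 and 0.43. Myog and Myod1 thus differed in opposite directions in all 12 settings fixed for this comparison, though the filters and probe averaging among them could not differ from the main one.

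Myf6, also called MRF4, had deposited intensities of 1302.3 in control and 1836.1 in depleted muscle, 1.41-fold higher. The log2 ratio of 0.42 was 2.66 times the spot SD and above 96.2% of all genes, though among the brightest 4624 genes, to which it belongs, 10.9% differed by 1.5-fold or more. Scaling to the median gave 0.78, subtraction of the local background 1.27, and scaling to the positive controls -0.03. The local background column stood at 97.4% and 91.9% of this spot's values, which leaves little signal after subtraction. That column read 1032.4 for this spot in control muscle, while the blank spots there averaged 36.3. Measured against the blank spots, the Myf6 spot was 1761 of their SDs above their mean in control muscle. In RefSeq, Myf6 and Myf5 are neighbouring genes, and their log2 ratios were 0.42 and 0.05.

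Calcr, the calcitonin receptor that holds stem cells in quiescence, had deposited intensities of 5.9 in control muscle and 7.1 in the depleted one. The difference of 1.2 units was 1.15 times the SD of the difference of blank spots, and the log2 ratio was 0.03. Its sign turned with scaling to the median (-0.04), with the local background subtracted (-0.01) and with scaling to the positive controls (-0.25). Like Pax7, the gene was too dim for a difference of this size to be told from spot error.

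Fgfr4, a fibroblast growth factor receptor of myoblasts and regenerating fibres, had deposited intensities of 8.4 in control and 12.9 in depleted muscle, 1.54-fold higher. The difference of 4.5 units was 4.33 times the SD of the difference of blank spots. The log2 ratio was 0.10 with the offset of 50 and 0.62 in deposited values, which carry no offset. It was 0.00 with the local background subtracted. Among the 4624 genes of its brightness class, 13.4% differed 1.5-fold or more in deposited values.

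Cdh15, or M-cadherin, which attaches stem cells to the myofibre and myoblasts to each other, had the highest ratio of the 10 in the main setting, though Myf6 was above it with scaling to the median (0.78 against 0.75) and with the local background subtracted (1.27 against 0.39). Its deposited intensity was 72.9 in control and 138.4 in depleted muscle, 1.90-fold higher. The log2 ratio of 0.58, or 1.49-fold, was 3.68 times the spot SD, and 98.0% of all genes had a lower ratio. Among the 4625 genes of its brightness class the log2 ratios had an SD of 0.24, and 3.01% differed by 1.5-fold or more. The ratio of Cdh15 ranged from 0.39 with the local background subtracted to 0.92 in deposited values, and was 0.40 with scaling to the positive controls.

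Itga7, the integrin chain that pairs with beta-1 integrin to bind laminin and is made by myofibres and smooth muscle as well as stem cells, had deposited intensities of 250.3 in control muscle and 278.3 in the depleted one. The log2 ratio was 0.12, which is 0.73 times the spot SD. It reached 0.36 with scaling to the median, and was -0.46 with the local background subtracted and -0.37 with scaling to the positive controls. Chodl, chondrolectin, a membrane protein of the lectin family found in quiescent stem cells, had deposited intensities of 127.3 and 148.5. Its log2 ratio of 0.15 was 0.94 times the spot SD, with 0.35 under scaling to the median, -0.09 with the local background subtracted and -0.30 with scaling to the positive controls. Neither gene differed by more than 1 SD of the spot error in the main setting.

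**Figure D3:**
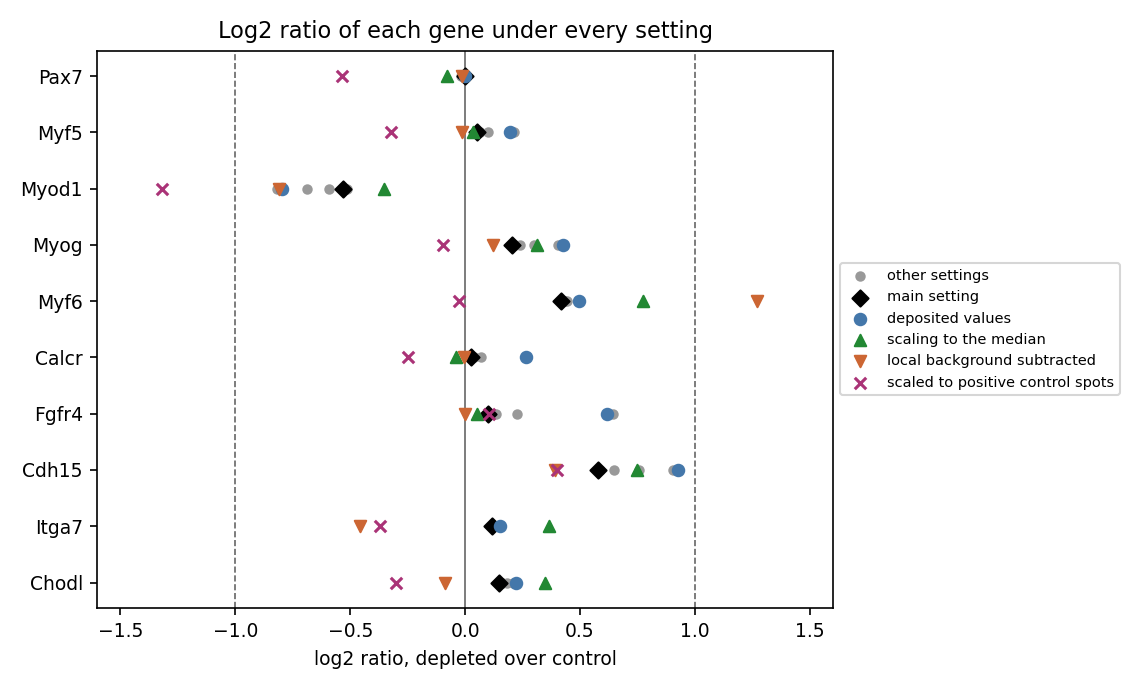
Log2 ratio of depleted over control (horizontal axis) for each of the 10 genes under the main setting, the alternatives fixed for this comparison and the scaling to positive control spots added later; dashed lines stand at a 2-fold difference. Myod1 lies below 0 and Cdh15 above 0 at every point, while the points of Itga7 and Chodl lie on both sides of 0 and Myf6 is at -0.03 with scaling to the positive control spots.

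The sequences before the start sites of Cdh15 and Myog are shown. Among the genes with a promoter in the RefSeq table, these had the highest log2 ratios in the main setting. In deposited values Fgfr4, at 0.62, was above Myog, at 0.43. Both Cdh15 and Myog differed in the opposite direction to Myod1, but 8 of the 10 genes were higher, so this does not set them apart. Of the 10 genes 7 had a promoter in the RefSeq table, and Myod1, Myf6 and Itga7 did not. Each sequence is the 250 bases before the RefSeq start site (build GRCm38.p6), on the gene's own strand, with E-boxes, CANNTG, in capitals. Cdh15 spans chr8:122848124-122848373 on the + strand, and Myog chr1:134289754-134290003 on the + strand.
Cdh15: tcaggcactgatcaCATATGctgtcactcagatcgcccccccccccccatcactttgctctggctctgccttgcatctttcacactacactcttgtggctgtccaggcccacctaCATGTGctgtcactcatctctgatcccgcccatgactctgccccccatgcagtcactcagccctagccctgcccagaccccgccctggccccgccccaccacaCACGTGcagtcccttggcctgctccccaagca
Myog: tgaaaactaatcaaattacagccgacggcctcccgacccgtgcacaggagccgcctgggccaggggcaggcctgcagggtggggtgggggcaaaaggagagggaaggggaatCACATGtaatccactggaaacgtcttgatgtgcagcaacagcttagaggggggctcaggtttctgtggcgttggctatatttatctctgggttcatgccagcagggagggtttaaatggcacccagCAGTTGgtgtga
The motif reads the same on both strands. Cdh15 held 3 E-boxes and Myog 2. An E-box was found in 66.2% of all 32851 RefSeq promoter windows of this length and at least 3 in 12.2%, so their presence is common. The narrower form CAGCTG, a subset of CANNTG, was in neither and was in 13.0% of all windows. Among the other genes, Chodl had 4 E-boxes, Fgfr4 had 2, Calcr had 0 and 1 in its 2 windows, and Myf5 and Pax7 had 0. A match is a description of the letters and not evidence of binding.

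Further stem cell markers showed small ratios. Of 16 fixed for this comparison, 12 had a higher and 4 a lower log2 ratio, 0 of them by 1.5-fold, with a median of 0.03. For this list and those below, 47.4% of all genes compared were higher by any amount, and 9695 of 18498 were lower. In deposited values, where no offset shrinks the ratios of dim genes, 3 of the 16 were at least 1.5-fold higher and 0 that much lower, with a median of 0.13, while 18.0% of all genes differed by 1.5-fold in either direction. The 3 brightest were Cd34, a surface sialomucin shared with endothelial cells and mesenchymal progenitors, at -0.46, the heparan sulfate proteoglycan Sdc4 at 0.44 and Spry1, an inhibitor of growth factor signalling, at 0.13. Vcam1, an adhesion molecule used to sort stem cells and named here for that role, was at 0.09.

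Partners and inhibitors of the myogenic factors were divided, with 6 of 12 higher and 6 lower, a median of -0.01 and 0 at 1.5-fold. The inhibitor Id1, which binds the partner proteins of the myogenic factors, was at -0.50, with deposited intensities of 450.1 in control and 305.7 in depleted muscle. Id3, of the same family, was at 0.03 and the repressor Zeb1 at -0.06.

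Of 14 upstream and cooperating factors measured, 6 were higher and 8 lower, with a median of -0.07. At 1.5-fold 2 were lower, Mef2c and Smarcd3, against 1.52% of all genes, and both are among the brightest 4624 genes, of which 10.9% differed that much in either direction. In deposited values the count was also 2. Mef2c, a factor that acts with the myogenic factors on muscle genes, had deposited intensities of 1266.8 in control and 677.7 in depleted muscle and a log2 ratio of -0.88. Smarcd3, the chromatin remodelling subunit BAF60C that works with MyoD, had 1115.6 and 566.5 and a ratio of -0.94. Mef2a was at 0.10.

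Differentiation and fusion genes were lower in 10 of 15 cases, with a median of -0.17. At 2-fold 1 was lower, against 0.427% of all genes. That gene was Actc1, the cardiac alpha-actin of developing and regenerating fibres, at -3.96, with deposited intensities of 9854.9 and 558.7. Desmin (Des) was at 0.00 and titin (Ttn) at -0.19. Mymk, the fusion protein myomaker, named here for its role, was dim at 8.2 and 6.2 deposited units.

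Ligands and partners of the receptors and adhesion proteins among the 10 were lower in 20 of 31 cases, with a median of -0.04. At 1.5-fold 2 were lower, against 1.52% of all genes, and 1 was higher, against 1.97%. In deposited values 6 were at least 1.5-fold lower and 2 that much higher, with a median of -0.19, where 18.0% of all genes differed by that much. Col5a1, a chain of collagen V, which binds the calcitonin receptor on stem cells, was at -0.78 with deposited intensities of 202.3 and 95.2, and Ramp1, which can pair with the calcitonin receptor, was at -0.62. Fgfr1, another fibroblast growth factor receptor of stem cells, was at 0.69 with 120.2 and 229.6. Itgb1, the partner chain of Itga7 and named for that role, was at 0.05, the laminin chain Lamb2 at -0.01 and the cadherin partner Ctnnb1 at -0.18.

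Proliferation genes were higher in 11 of 14 cases, where 47.4% of all genes were, with a median of 0.16. At 1.5-fold 1 gene, Aurka at -0.91, was lower, against 1.52% of all genes. Pcna, the clamp of DNA polymerase, was at 0.17 and the mitotic kinase Aurkb at 0.11. Most of these genes were dim, and in deposited values the median was 0.43, with 7 of 14 at least 1.5-fold higher and 1 that much lower. Those 7 were 1.52-fold to 4.92-fold higher, and Aurka was 3.30-fold lower. The most different of the 7, Ccnb2, had 3.7 in control and 18.2 in depleted muscle, and Aurka had 114.9 and 34.8. The difference of 2 blank spots had an SD of 1.04 units. In deposited values 18.0% of all genes differed by 1.5-fold in either direction. Among the 4624 genes of Fgfr4's brightness class, where most of the proliferation genes lie, the share was 13.4%. Proliferation genes are expressed by any dividing cell, and the cells of origin were not tested.

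**Figure D4:**
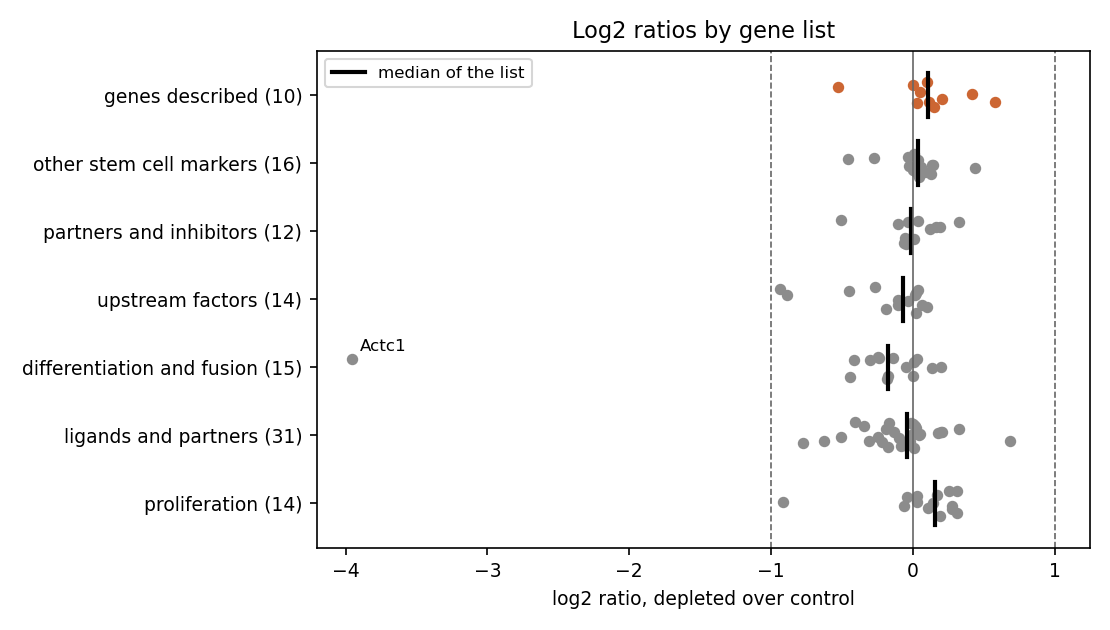
Log2 ratio of depleted over control for the 10 genes and for 6 lists of the myogenic programme, each point a gene, with the number of genes compared in parentheses, vertical bars at the medians and dashed lines at a 2-fold difference. The median of the 10 genes is 0.11, those of the lists run from -0.17 to 0.16, and Actc1 stands apart at -3.96.

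Markers of other cells of the muscle were set beside the 10 genes by their log2 ratios and by the sum of their deposited intensities, which the brightest probes of a list dominate. All 9 myofibre markers were above background, and 2 were higher, 6 lower and 1 the same, with a median log2 ratio of -0.05. The summed deposited intensity of these markers was 326638 in control and 235932 in depleted muscle. Deposited values follow the scanner values with slopes of 1.27 in control and 0.939 in depleted muscle, which enter every sum given here. In scanner units the brightest myofibre marker read 51523 in control and 48426 in depleted muscle. Mesenchymal progenitor markers were lower in 6 of 6, with a median of -1.10 and sums of 8144.8 and 4740.4. Smooth muscle and pericyte markers, cells that also make Itga7, were higher in 5 of 7, with a median of 0.39 and sums of 1935.5 and 2865.1. Macrophage markers were higher in 5 of 5, with a median of 0.71 and sums of 2405.5 and 5454.9. Endothelial markers were higher in 5 of 5, with a median of 0.14 and sums of 412.7 and 620.2. Of the Schwann cell markers 2 were higher and 2 lower, with a median of 0.06 and sums of 244.0 and 248.3. Erythroid markers were lower in 4 of 4, with a median of -2.30 and sums of 31758 and 5713.8. None of these markers was at or below background on either array, and the part of any of these cells in the ratios of the 10 genes was not tested.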

How the data were processed

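Gene expression was measured on 1 single-colour array for each of 2 samples. Per the file headers, the authors' scanner files give each spot's intensity as its median at 635 nm, combined over 3 gains of the scanner and not background-subtracted. The authors also deposited processed intensities, which follow the scanner values along a straight line on each array, with slopes of 1.27 (control) and 0.939 (depleted) and 0 at about the mean of the blank spots. Scanner and genome build: not given in the sources used here.

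The main setting applied normexp with an offset of 50 (limma 3.58.1, R 4.3.3) to all spots, took log2 and then quantile-normalized the probes. The steps were tested on simulated data in which only bright spots were changed, each by at least 2-fold. That test does not cover dim spots or the smaller differences of the 10 genes. Where a gene had more than 1 probe, the brightest was used. Values below background were raised to the lowest value above it on that array, if lower. Further steps ran in Python 3.11.15 (pandas 2.3.3, numpy 2.4.6, matplotlib 3.10.9). Symbols came from the platform's probe annotation, and all 10 matched RefSeq by Entrez gene.

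The genes and lists were chosen with earlier results of these data known. Besides the 10 genes, the text names Pdgfra, the 3 brightest genes of each list and every list gene with a 1.5-fold difference in the main setting. A few others are named for their role, and Ccnb2 for its fold in deposited values. Genes whose pattern resembles these were not sought, since 2 arrays give no measure of likeness. The local background column was not subtracted in the main setting. Alternatives were another offset, no correction, subtraction of the blank spots or of the local background, median scaling, cyclic loess, the authors' values, averaging the probes of a gene, stricter and looser filters on dim genes and a 1.5-fold threshold.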

Additional observations from a re-analysis of the deposited data

How the results depend on the processing

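No paired analysis was possible because there was a single array per group. For the 10 genes, 84 of 116 values under alternatives lay within 1 spot SD of the main value and 32 moved further. The 84 include every value from the filters on dim genes and from the averaging of probes. Those settings could not move these genes, each with 1 probe above background on both arrays, so the 84 overstate how stable the values were. Of the 116 values, 13 changed sign and 1 was exactly 0 (Pax7 in the authors' processed values). The 8 higher and 2 lower genes became 3 and 7 with the local background subtracted (1 at least 2-fold higher), 5 and 1 over brighter genes because 4 are dim, and 2 and 8 with scaling to the positive control spots (1 at least 2-fold lower), which put their median at -0.27; cyclic loess and the authors' processed values gave 1 lower gene. Numbers of all genes at least 2-fold higher and lower (92 and 79, so 53.8% higher) were 505 and 360 after subtraction of the blank spots, 393 and 443 after that of the local background, 217 and 38 with scaling to the median (85.1% higher), 593 and 397 in the authors' processed values, 157 and 2063 (7.07% higher) with scaling to the positive control spots, and 364 and 282 at 1.5-fold by construction; an offset of 16 gave 164 higher. Differentiation and fusion genes had a median of -0.011 with scaling to the median, upstream factors -0.23 over brighter genes, and proliferation genes 0.43 both with the blank spots subtracted and in the authors' processed values. With the blank spots subtracted and scaling to the positive control spots, where the median of all genes stood at -0.54, the list medians were -0.83 (differentiation and fusion), -0.72 (ligands and partners), -0.39 (other stem cell markers), -0.52 (partners and inhibitors), -0.10 (proliferation) and -0.63 (upstream factors). Where no cause is given, the cause was not tested. Signal over background limits Pax7, Calcr, Fgfr4 and Myf5.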
